A study of Canis lupus familiaris with 13 samples.

Results

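The 10 genes described here act together in the uptake of lipoprotein fat by muscle: ANGPTL4, LPL, GPIHBP1, LMF1, VLDLR, CD36, FABP3, FABP4, ACSL1 and SLC27A1. They were taken by symbol from a table of 30951 genes, all 10 were found once each, and all 10 were among the 14629 genes that passed the filter on low counts. The study sequenced RNA from the biceps femoris, a thigh muscle that was biopsied in 4 wild-type dogs aged 9 to 10 months. Under insulin stimulation there were 10 libraries: sample 1 of all 4 dogs, sample 2 of all 4 dogs, and sample 3 of dogs 1 and 2. Basal libraries, all numbered sample 0, came from dogs 2, 3 and 4 (n = 3), and no basal library of dog 1 was analysed here. The labels give neither the dose and route of insulin nor the meaning of the sample number, and they name no breed or sex. Libraries of 1 dog are repeat biopsies and not separate animals, so the insulin and basal groups are compared here within dogs. The tests still treat libraries of 1 dog as independent given the dog. Repeat biopsies therefore count toward the spread that sets their p-values.

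Lipoprotein lipase (LPL) sits on the inner surface of capillaries and splits the triglycerides of circulating lipoproteins, and the fatty acids released enter the muscle fibre. LMF1 helps the enzyme fold in the endoplasmic reticulum, GPIHBP1 carries it across the endothelial cell, and ANGPTL4 is a secreted protein that inactivates it. In mammals ANGPTL4 is known as a gene that fasting and fatty acids induce. VLDLR is a receptor for triglyceride-rich lipoproteins. CD36 and SLC27A1 take fatty acids into the cell, FABP3 and FABP4 bind them there, and ACSL1 joins them to coenzyme A.

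Library totals lay between 45200416 and 81948641 counts, and the lowest count of any of the 10 genes in any library was 104. ACTA1, the actin of skeletal muscle, took between 10.4% and 18.4% of the counts, and all 6 skeletal muscle markers were detected in every library. The highest share belonged to dog 1 sample 2, and its mean correlation with the remaining libraries was the lowest (r = 0.943). Levels are given as CPM, the counts of a gene scaled to a common library total after adjustment by the trimmed mean of M values. They are not divided by transcript length and are compared only within a gene. In a biopsy of mixed cells, fewer cells of a type and less RNA per cell cannot be told apart.

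ANGPTL4 was the member that passed the test of insulin against basal, and it was lower in insulin-stimulated than in basal muscle. In dog 2 it had 3.39, 2.14 and 3.05 CPM in insulin samples 1, 2 and 3, against 6.25 CPM in the basal sample. In dog 3 it had 4.28 and 5.22 CPM in insulin samples 1 and 2, against 56.8 CPM in the basal sample. In dog 4 it had 4.99 and 4.51 CPM in insulin samples 1 and 2, against 42.1 CPM in the basal sample. Within each of these dogs the basal library lay above every insulin library. Dog 1, with insulin libraries only, had 5.07, 11.95 and 4.24 CPM in samples 1, 2 and 3. Across dogs the groups overlapped at 1 point, because dog 1 sample 2 lay above the basal library of dog 2.

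ANGPTL4 averaged 4.88 ± 2.67 CPM in insulin libraries (SD, n = 10) and 35.1 ± 26.0 CPM in basal libraries (SD, n = 3). The log2 fold change, insulin over basal, was -2.74 ± 0.41 (SE, 95% interval -3.62 to -1.87), and the adjusted p was 0.0217 in edgeR's quasi-likelihood test with the dog as a block and Benjamini-Hochberg adjustment over all genes tested. In this comparison 20 genes, or 0.137% of those tested, passed the threshold of 0.05, and ANGPTL4 ranked 9 by p. It was lower in 3 of 3 dogs with a basal library. The call does not hold without every library: leaving out any single library of dog 3 or dog 4, 6 in all, took the adjusted p to between 0.0896 and 0.277. Leaving out dog 3 or dog 4 whole gave 0.364 and 0.443. The log2 fold change in these 8 fits lay between -2.72 and -2.22. Without the basal library of dog 2 it was -3.37 with an adjusted p of 0.00126 (edgeR). All these fits count the repeat libraries of a dog separately. Summing counts per dog and stimulation, which does not, gave -2.65 with an adjusted p of 0.747 (edgeR), so ANGPTL4 did not pass there.

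**Figure D1:**
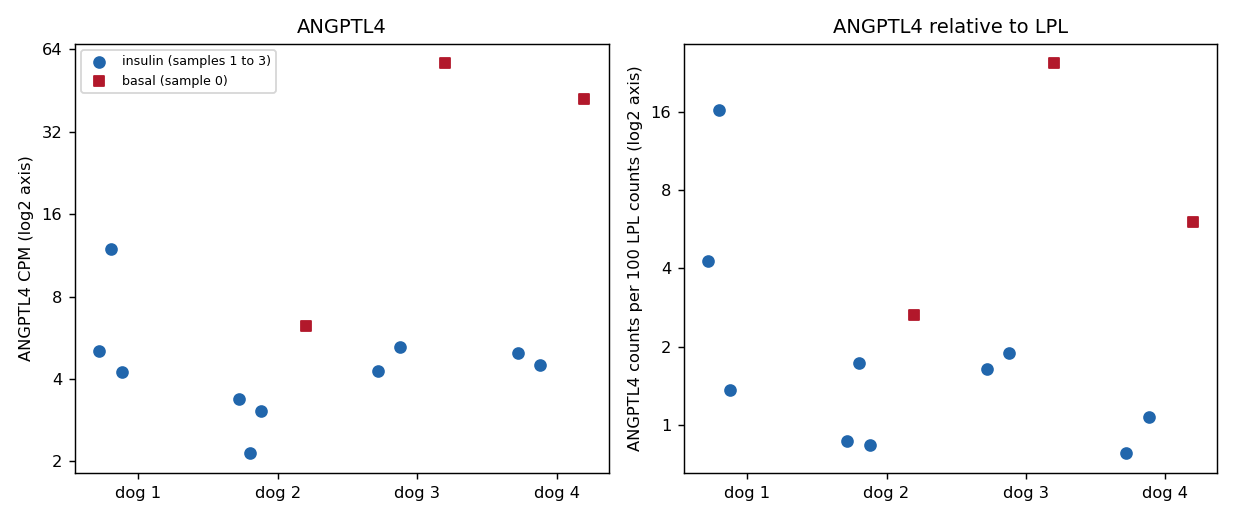
Left panel, level of ANGPTL4 in CPM, and right panel, ANGPTL4 counts per 100 LPL counts, both on log2 axes, for the 13 libraries by dog, each point being 1 library (blue circles insulin, red squares basal). In each of dogs 2, 3 and 4 the square lies above all circles in both panels; in the left panel the basal libraries stand at 6.25, 56.8 and 42.1 CPM in dogs 2, 3 and 4.

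The size of the difference varied between dogs. On the level scale the basal library was 2.18 times the mean of the insulin libraries in dog 2, 11.95 times in dog 3 and 8.87 times in dog 4. A model with a separate insulin effect in each dog, added after the data had been seen, gave log2 fold changes of -1.12 ± 0.47 in dog 2, -3.58 ± 0.51 in dog 3 and -3.15 ± 0.50 in dog 4 (SE). The test that these 3 values differ gave an unadjusted p of 0.0147 and an adjusted p of 0.772 in edgeR's quasi-likelihood test, in which 0.0273% of genes passed. Each of these dogs has 1 basal library, which this model fits exactly. The spread behind the SE and the test thus comes from insulin libraries only, and how basal biopsies vary within a dog was not measured. The fitted changes were larger in dogs 3 and 4, but the difference between dogs did not pass after adjustment. The insulin levels of the 3 dogs were close together, at means of 2.86, 4.75 and 4.75 CPM in dogs 2, 3 and 4, while their basal levels spanned 9.09-fold.

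Samples 1 and 2 were also set against sample 0 one at a time. The log2 fold change of ANGPTL4 was -2.83 ± 0.52 in sample 1 and -2.63 ± 0.53 in sample 2 (SE). Neither passed in edgeR's quasi-likelihood test (adjusted p = 0.219 and 0.237), where 0% of genes passed for sample 1 and 0.0479% for sample 2. At an unadjusted p under 0.05, 438 genes passed for sample 1 against sample 0. DESeq2 called ANGPTL4 in both, with adjusted p of 4.73e-06 and 4.06e-05, and called 40 genes for sample 1 and 73 for sample 2. Without the basal library of dog 2, the lowest of the 3, edgeR gave adjusted p of 0.0190 and 0.0231. Without that of dog 3 it gave 0.800 and 0.715, and without that of dog 4 neither passed. With only the 2 sample numbers compared edgeR gave 0.787 and 0.359, and without the filter on low counts 0.918 and 0.810. These comparisons use the same 3 basal libraries and are not independent of each other or of the pooled one. Sample 2 differed from sample 1 by 0.20 ± 0.45 (SE, 95% interval -0.80 to 1.20), and the sign turned to -0.32 without dog 1 sample 2. In sample 3, which only dogs 1 and 2 have, ANGPTL4 stood at 4.24 and 3.05 CPM.

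ANGPTL4 was among the most variable genes of the whole series, but not among insulin libraries alone. The SD of its log2 CPM over the 13 libraries was 1.40, higher than that of 97.7% of the genes tested. With each dog's mean subtracted it was 1.40 over all 13 libraries and 0.51 among the insulin libraries, which is higher than in 62.2% of genes.

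Markers of other cell types were read beside ANGPTL4, since adipocytes and endothelial cells also express it. The 7 adipocyte markers matched, of 9 in the list, summed to 13.6 to 40.1 CPM in insulin libraries and 11.1 to 55.5 CPM in basal libraries. Their log2 fold changes, insulin over basal, were positive for 4 and negative for 3. They ran from -0.17 to 3.01, and none passed in edgeR. The basal library of dog 3 had the highest sum, 55.5 CPM, with PLIN1, the coat protein of fat droplets, at 20.1 CPM, and its ANGPTL4 was the highest as well. The basal library of dog 4 had a sum of 14.0 CPM, against 14.0 and 33.8 CPM in the insulin libraries of that dog, and its ANGPTL4 was 42.1 CPM. The adipocyte hormone LEP was at 0 in 3 libraries and RETN in 1, and ADIPOQ and ADIG were not matched by symbol. The 10 endothelial markers summed to 94.7 to 368.5 CPM in insulin libraries and 120.6 to 428.6 CPM in basal libraries, with the highest value again in the basal library of dog 3. The part of these cells in the ANGPTL4 difference was not tested.

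Neutrophil markers had the same sign of fitted change as ANGPTL4. All 5 that could be tested had negative log2 fold changes, insulin over basal, with a median of -1.44. None passed the threshold in edgeR, and 4 had an unadjusted p under 0.05. Their list of 7, with 6 matched, summed to 23.5 to 65.7 CPM in insulin libraries and 31.9 to 74.3 CPM in basal libraries. MPO was at 0 in 8 libraries. Macrophage and monocyte markers, 9 matched of 10, summed to 9.40 to 45.5 CPM in insulin libraries and 13.1 to 55.5 CPM in basal libraries, and CD68 was at 0 in 4 of the 13 libraries. Red blood cell markers, 6 matched of 6, summed to 35.9 to 50.9 CPM in insulin libraries and 34.9 to 45.8 CPM in basal libraries, and SLC4A1 was at 0 in 10 libraries. GYPC and SLC25A37 carry most of that sum, with log2 fold changes, insulin over basal, of 0.10 ± 0.15 and 0.19 ± 0.18 (SE). Those of ALAS2, the first enzyme of haem synthesis in red cell precursors, HBM, a globin, and AHSP, a chaperone of globin, were -1.89 ± 0.54, -2.16 ± 0.85 and -1.94 ± 1.21 (SE). The mean levels of ALAS2, HBM and AHSP were low, at 0.67, 0.13 and 0.056 CPM in insulin libraries. In basal libraries they were 1.87, 0.44 and 0.13 CPM. None of the 5 red blood cell markers tested passed the threshold in edgeR, and ALAS2 and HBM had unadjusted p of 0.00351 and 0.0243. The part of blood cells in the difference was not tested either.

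The enzyme that ANGPTL4 inactivates did not pass the test. LPL had 392.7, 123.8 and 364.2 CPM in insulin samples 1, 2 and 3 of dog 2, against 236.9 CPM in its basal sample. Dog 3 had 260.2 and 275.3 CPM in insulin samples 1 and 2, against 231.0 CPM in its basal sample. Dog 4 had 642.9 and 419.7 CPM in insulin samples 1 and 2, against 700.6 CPM in its basal sample. Basal LPL was thus inside, below and above the insulin values of its own dog. Dog 1 had 118.7, 73.7 and 309.7 CPM in its 3 insulin samples, which include the lowest of the series. The log2 fold change, insulin over basal, was 0.04 ± 0.41 (SE, 95% interval -0.85 to 0.93), an interval that runs from 0.555 to 1.90 times the basal level.

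Because both genes are counted in the same library, the count of ANGPTL4 per 100 counts of LPL needs no scaling between libraries. It ranged from 0.777 to 16.2 in insulin libraries, with a median of 1.51, and was 2.64, 24.6 and 6.02 in the basal libraries of dogs 2, 3 and 4. Within dogs the log2 of this ratio, insulin minus basal, was -1.29 in dog 2, -3.80 in dog 3 and -2.72 in dog 4, a mean of -2.60 ± 1.26 (SD, n = 3 dogs). An exact two-sided sign-flip permutation test over the dogs gave p = 0.25, which is the smallest that 3 dogs allow. The highest insulin value, 16.2, was again dog 1 sample 2, where LPL was at its lowest and ANGPTL4 at its highest among insulin libraries.

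LMF1 and GPIHBP1, which bring LPL to its place of action, did not pass either. LMF1 averaged 7.14 ± 1.03 CPM in insulin libraries (SD, n = 10) and 8.28 ± 0.62 CPM in basal libraries (SD, n = 3). It varied little, between 6.13 and 8.98 CPM, and only 6.5% of genes had a lower SD over the 13 libraries. Its log2 fold change was -0.21 ± 0.18 (SE). GPIHBP1, made by capillary endothelium, ranged from 1.81 to 7.65 CPM in insulin libraries and from 2.40 to 3.60 CPM in basal libraries. Its log2 fold change was 0.17 ± 0.39 (SE, 95% interval -0.67 to 1.00).

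VLDLR, the lipoprotein receptor, had 20.2 to 40.5 CPM in insulin libraries and 26.5, 28.4 and 40.8 CPM in the basal libraries of dogs 3, 2 and 4. Its log2 fold change was 0.01 ± 0.19 (SE, 95% interval -0.40 to 0.43). The levels overlapped, and the insulin mean was above the basal value in dogs 2 and 3 and below it in dog 4.

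**Figure D2:**
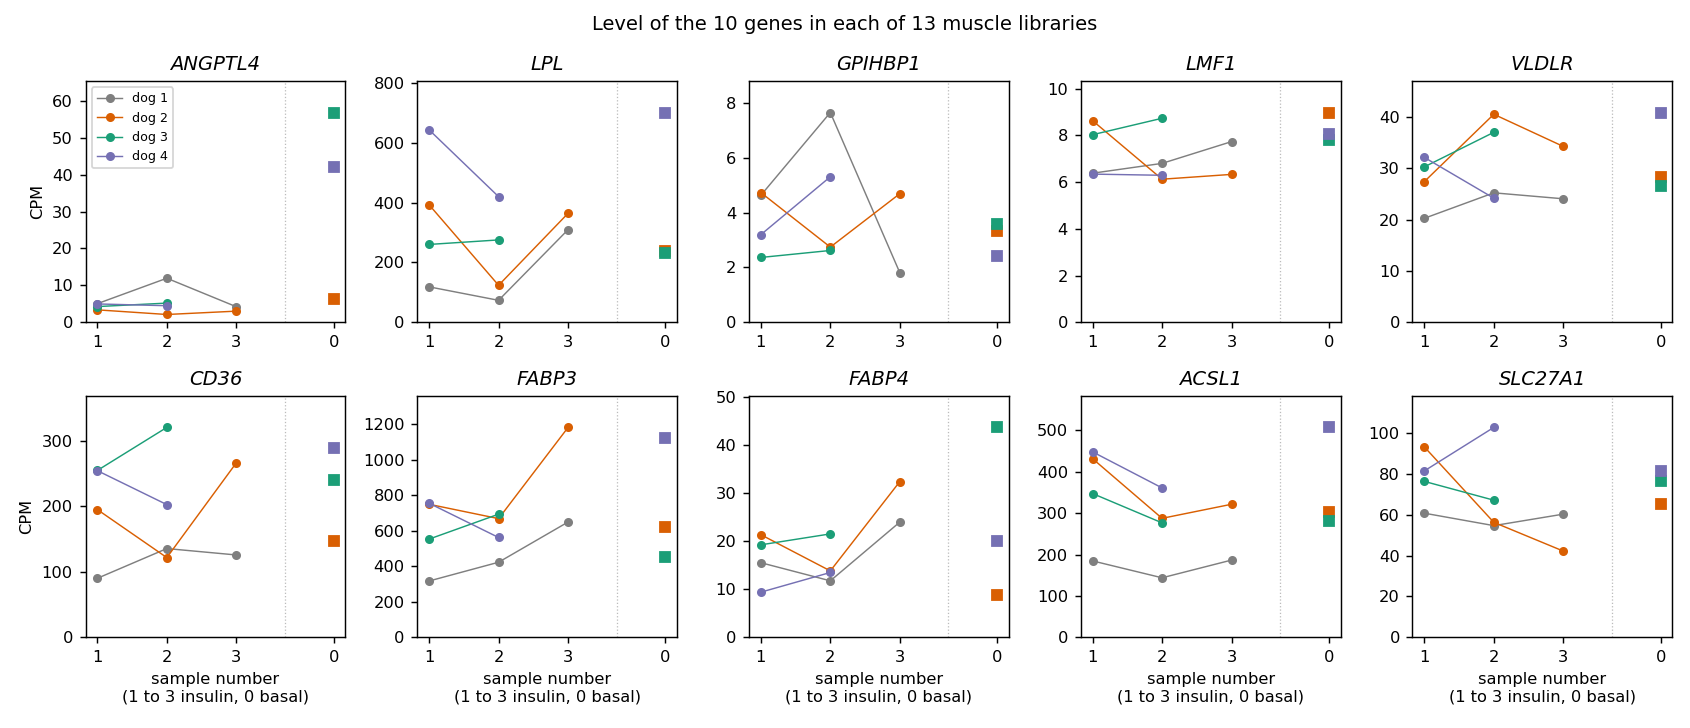
Level in CPM of each of the 10 genes (1 panel per gene, linear axis from 0) against sample number, with insulin samples 1 to 3 on the left and basal sample 0 on the right. Circles are insulin libraries and squares basal libraries, coloured by dog, and lines join the insulin libraries of 1 dog. The squares of dogs 3 and 4 for ANGPTL4, at 56.8 and 42.1 CPM, lie far above its circles, which reach 11.95 CPM. Its square of dog 2, at 6.25 CPM, lies below the highest circle, so circles and squares overlap for all 10 genes. Of all genes tested, 136 (0.93%) had no overlap.

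CD36, the fatty acid translocase of the cell surface, had 194.7, 121.5 and 266.0 CPM in insulin samples 1, 2 and 3 of dog 2, against 146.8 CPM in its basal sample. It had 254.3 and 320.0 CPM in insulin samples 1 and 2 of dog 3, against 239.9 CPM in its basal sample, and 254.0 and 202.3 CPM in those of dog 4, against 289.2 CPM in its basal sample. Its log2 fold change was 0.11 ± 0.23 (SE, 95% interval -0.40 to 0.61). SLC27A1, a transporter of long-chain fatty acids, averaged 69.5 ± 18.8 CPM in insulin libraries (SD, n = 10) and 74.5 ± 8.43 CPM in basal libraries (SD, n = 3), a log2 fold change of 0.01 ± 0.20 (SE).

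Neither fatty acid binding protein passed the test. FABP3, the form of heart and skeletal muscle, had 316.7 to 1181 CPM in insulin libraries and 453.5, 618.2 and 1121 CPM in the basal libraries of dogs 3, 2 and 4. Its log2 fold change was 0.04 ± 0.29 (SE). FABP4, the form of adipocytes and capillary endothelium, had 21.4, 13.8 and 32.5 CPM in insulin samples 1, 2 and 3 of dog 2, against 8.81 CPM in its basal sample. In dog 3 it had 19.3 and 21.6 CPM in insulin samples 1 and 2, against 43.8 CPM in the basal sample, and in dog 4 it had 9.40 and 13.5 CPM, against 20.2 CPM. Basal FABP4 was thus below all insulin libraries of its dog in dog 2 and above them in dogs 3 and 4.

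The pooled log2 fold change of FABP4 was -0.32 ± 0.41 (SE, 95% interval -1.21 to 0.57). By dog it was 1.36 ± 0.50 in dog 2, -1.10 ± 0.47 in dog 3 and -0.81 ± 0.48 in dog 4 (SE), and the test that these differ gave an unadjusted p of 0.00863 and an adjusted p of 0.721 in edgeR's quasi-likelihood test. As for ANGPTL4, the spread behind the SE and the test by dog comes from insulin libraries only. The highest basal FABP4, in dog 3, came from the library with the highest adipocyte and endothelial marker sums, and the lowest, in dog 2, from the library with the lowest adipocyte sum, 11.1 CPM. The part of those cells in the FABP4 values was not tested.

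ACSL1, the main long-chain acyl-CoA synthetase of muscle, averaged 298.9 ± 103.8 CPM in insulin libraries (SD, n = 10) and 364.3 ± 124.3 CPM in basal libraries (SD, n = 3). With the dogs as a block the log2 fold change was 0.00 ± 0.18 (SE, 95% interval -0.38 to 0.39). The lower insulin mean includes dog 1, whose 3 libraries had 184.6, 143.8 and 186.6 CPM, the lowest of the series, and no basal library of that dog was analysed.

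Of the 10 genes, 1 passed in insulin against basal, downward, and 9 had an adjusted p of 1. Of all 14629 genes tested, 20 (0.137%) passed. The median log2 fold change of the 10 genes was 0.01, and that over all genes tested was -0.0013. For 7 of the 10 the 95% interval lay within a 2-fold change in either direction, which is not evidence of no change. The share of all genes tested with such an interval is not given here. By dog, the other 9 genes were mostly higher with insulin in dogs 2 and 3 (7 and 6 of 9) and mostly lower in dog 4 (7 of 9).

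**Figure D3:**
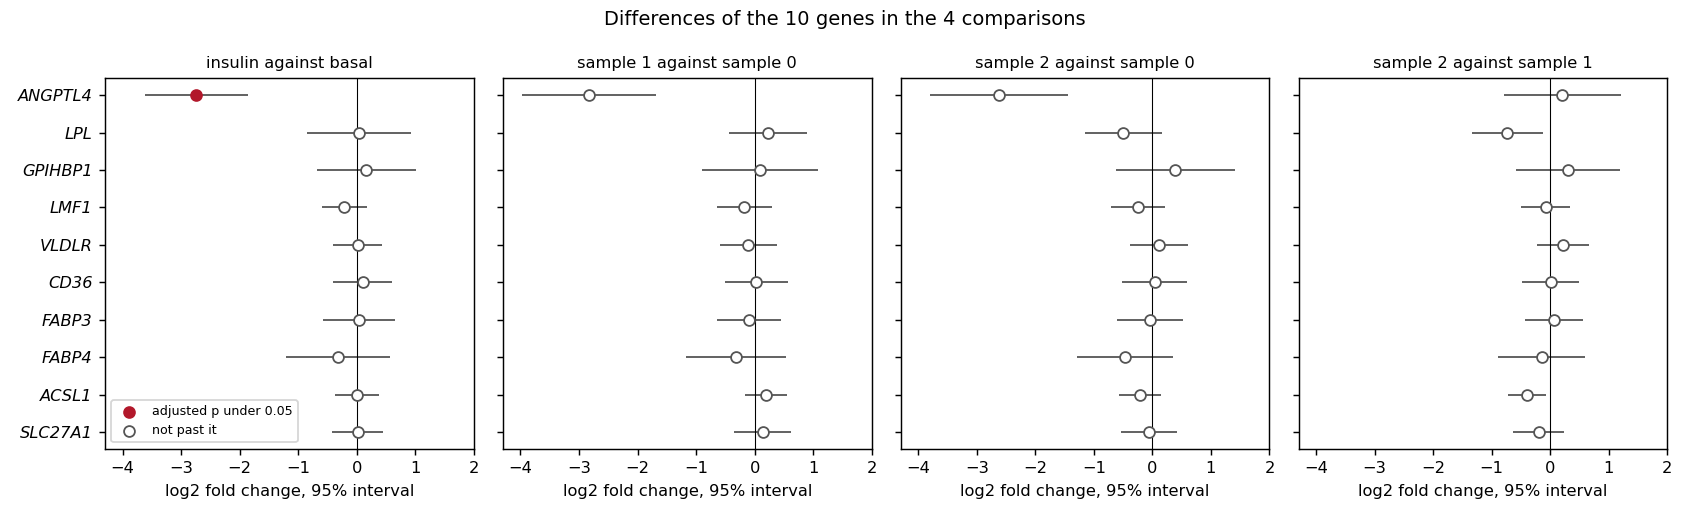
Log2 fold changes of the 10 genes with 95% intervals from edgeR with the dog as a block, 1 panel for each of 4 comparisons; filled red points have an adjusted p under 0.05. The only filled point is ANGPTL4 in insulin against basal, with an interval of -3.62 to -1.87, and in that panel the intervals of the other 9 genes include 0.

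Sample 2 was also set against sample 1, both under insulin, in the 4 dogs. None of the 10 genes passed, and 0% of all genes passed in edgeR's quasi-likelihood test, with 0 called by DESeq2 as well and 495 genes at an unadjusted p under 0.05. LPL and ACSL1 had the lowest p of the 10. ACSL1 was lower in sample 2 in 4 of 4 dogs, by -0.31 to -0.59 on the log2 scale, with a fitted change of -0.40 ± 0.15 (SE, unadjusted p = 0.0190, adjusted p = 0.902, edgeR). LPL was lower in 3 of 4 dogs, with a fitted change of -0.73 ± 0.28 (SE, unadjusted p = 0.0233, adjusted p = 0.902, edgeR). Its largest difference was in dog 2, with 123.8 CPM in sample 2 and 392.7 CPM in sample 1, and without that dog the fitted change was -0.39. Slow fibre markers were lower in sample 2 for 6 of 8, with a median log2 change of -0.15, and all 10 endothelial markers had negative changes, with a median of -0.42. None of either list passed, and their part in the LPL and ACSL1 values was not tested.

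Several of the fatty acid genes varied together with markers of fibre type. After each dog's mean had been subtracted, Pearson's r with the summed slow fibre markers (8 of 8 matched) over 13 libraries was 0.81 for CD36, 0.70 for FABP3, 0.70 for FABP4, 0.69 for LPL and 0.64 for ACSL1. Without the 2 libraries farthest from the median of the marker sum, r was 0.90, 0.85, 0.60, 0.77 and 0.50 in the same order. With the summed fast fibre markers (9 of 10 matched) r was -0.79 for CD36, -0.76 for FABP3, -0.72 for FABP4, -0.83 for LPL and -0.47 for ACSL1. Without dog 2, r with the slow fibre sum was 0.35 for FABP4 and between 0.65 and 0.92 for the other 4 genes, and r with the fast fibre sum was -0.24 for ACSL1 and between -0.83 and -0.50 for the other 4. ANGPTL4 had r = 0.06 with the slow fibre sum and -0.01 with the fast fibre sum, and 0.30 and -0.08 without dog 2. Over all marker lists its r farthest from 0 were 0.47 with the neutrophil sum and -0.50 with the red blood cell sum. The r with the slow fibre sum was 0.16 for VLDLR, 0.15 for LMF1, -0.0042 for GPIHBP1 and -0.048 for SLC27A1. Without dog 2 it was 0.80, 0.87, -0.77 and -0.57 in the same order. These values describe 13 libraries from 4 dogs, which are not independent samples, and all measures share the scaling of the library.

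Slow fibre markers summed to 22848 to 47338 CPM in insulin libraries and 21281 to 53432 CPM in basal libraries. The lowest sum was in the basal library of dog 2 and the highest in that of dog 4, so the 3 basal libraries alone span the whole range of the sum. The part of fibre composition in their values was not tested. GPIHBP1 had r = 0.67 with the endothelial sum and VLDLR had r = -0.79 with the macrophage and monocyte sum, while FABP4 had r = 0.57 with the adipocyte sum. These values were picked from the r of all 10 genes with 8 marker lists, and no test was run on them.

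**Figure D4:**
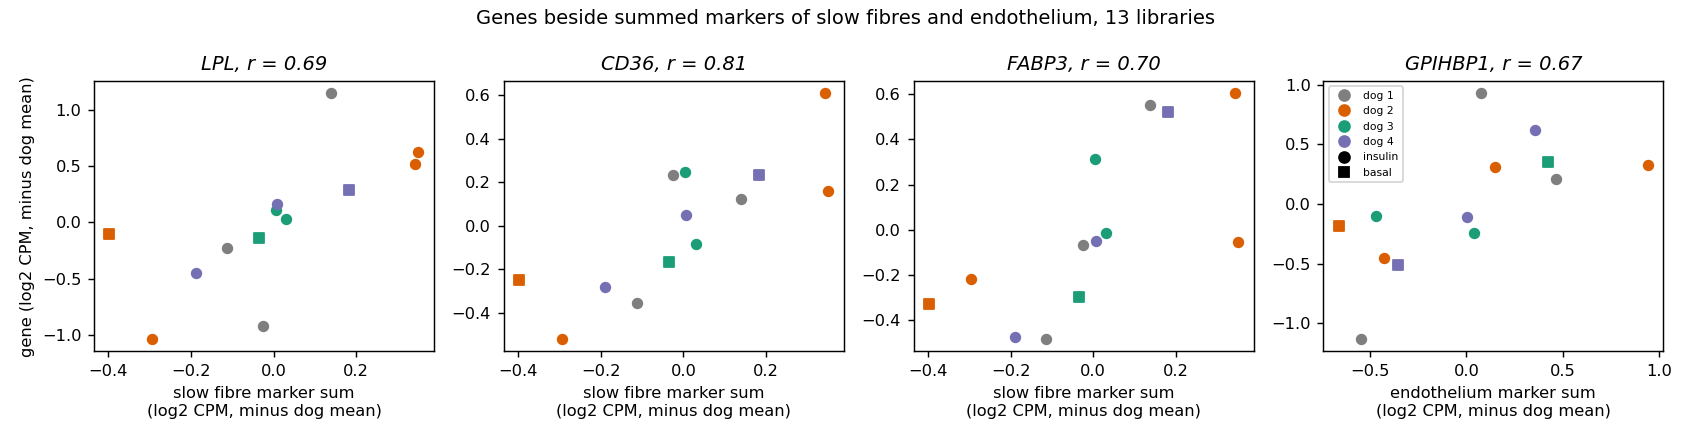
LPL, CD36 and FABP3 against the summed slow fibre markers, and GPIHBP1 against the summed endothelial markers, each in log2 CPM with the mean of the dog subtracted, over 13 libraries (circles insulin, squares basal, colours dogs). Points rise from left to right in the 4 panels, with r of 0.69, 0.81, 0.70 and 0.67, and insulin and basal libraries are mixed along the axis.

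Among the 45 pairs of the 10 genes, r on the same scale ran from -0.61, for VLDLR with SLC27A1, to 0.82, for CD36 with FABP3, with a median of 0.10 and 29 pairs above 0. LPL had r = 0.68 with ACSL1 and 0.65 with FABP3.

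**Figure D5:**
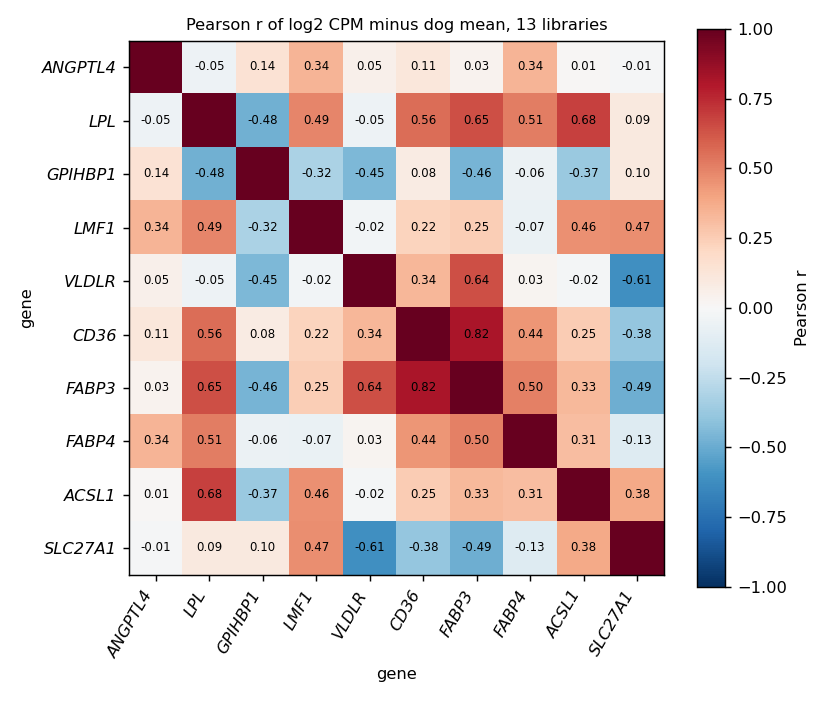
Pearson's r, written in each cell and coloured from blue (negative) to red (positive), between each pair of the 10 genes in log2 CPM with the mean of the dog subtracted, over 13 libraries. The highest value is 0.82, CD36 with FABP3, and the lowest -0.61, VLDLR with SLC27A1; ANGPTL4 lies between -0.05 and 0.34 with the other 9 genes.

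The genes whose pattern was most like that of ANGPTL4 over the 13 libraries, among 8270 compared after the dog's mean had been subtracted, were NRBF2 (r = 0.97), PPM1D (0.96), ARF4 (0.96), HBP1 (0.94) and STX5 (0.93). The least alike were PPP1R3C (-0.98), CBFA2T3 (-0.98) and IP6K3 (-0.96). HBP1, a transcriptional repressor, averaged 47.3 ± 7.28 CPM in insulin libraries (SD, n = 10) and 89.3 ± 15.4 CPM in basal libraries (SD, n = 3), and it passed in insulin against basal (adjusted p = 0.0373 in edgeR), its log2 fold change being -0.84 ± 0.14 (SE). That call was lost without any 1 of the 10 libraries of dogs 2, 3 and 4, with adjusted p between 0.0575 and 0.332. PPP1R3C, a subunit that directs protein phosphatase to glycogen, averaged 331.8 ± 58.3 CPM in insulin libraries (SD, n = 10) and 85.2 ± 73.8 CPM in basal libraries (SD, n = 3), with an adjusted p of 0.0993 in edgeR. These genes were chosen for their r, which is a description with no test. Among insulin libraries alone r was 0.88 for NRBF2, 0.66 for PPM1D, 0.88 for ARF4, 0.84 for HBP1 and 0.76 for STX5, and -0.80, -0.86 and -0.76 for PPP1R3C, CBFA2T3 and IP6K3. The insulin libraries are among the 13 by which the genes were chosen, so these r are not a separate check. They also include dog 1 sample 2, whose ANGPTL4 stood apart from that of the other insulin libraries.

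Other genes of the pathway were counted in 6 lists of 60 symbols, 56 of them matched, and none passed in any of the 4 comparisons in edgeR. In insulin against basal ACSL3 and PPARGC1A had an unadjusted p under 0.05, and DESeq2 called none of the genes named from these lists. Of the other regulators and relatives of LPL, 15 of 17 could be tested, with 9 positive and 6 negative log2 fold changes in insulin against basal and a median of 0.01. APOC1, an apolipoprotein that slows lipoprotein clearance, had 2.15 ± 1.05, and LIPA, the lysosomal acid lipase, -0.41 ± 0.22 (SE). APOC1 was barely detected, at 0.55 ± 1.08 CPM in insulin libraries (SD, n = 10) and 0.12 ± 0.14 CPM in basal libraries (SD, n = 3). Without dog 2 sample 3 the log2 fold change of APOC1 was 1.02. SORL1, a sorting receptor that sends LPL to lysosomes, had -0.71 ± 0.52, and FURIN, a protease that cleaves LPL and ANGPTL4, -0.39 ± 0.33 (SE).

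Of the other lipoprotein receptors, 6 of 6 were tested and 2 were positive. LRP1, a large scavenging receptor, had a log2 fold change of -0.27 ± 0.51, and SCARB1, the receptor for high-density lipoprotein, had -0.06 ± 0.19 (SE).

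Of the other fatty acid transporters and acyl-CoA synthetases, 11 of 14 were tested, with 6 positive and 5 negative. ACSL3, a synthetase of lipid droplets, had the lowest p of the list (unadjusted p = 0.00745, adjusted p = 0.641, edgeR), and its log2 fold change was -0.83 ± 0.26 (SE). ACSL6 had -0.19 ± 0.13, the transporter SLC27A6 -0.64 ± 0.45 and CAV1, the main protein of caveolae, 0.23 ± 0.25 (SE). Of 8 other fatty acid binding proteins and relatives, only RBP7, a retinoid-binding relative of the family, could be tested, with -0.79 ± 0.45 (SE).

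Of 10 known transcriptional regulators of ANGPTL4, all were tested, 5 were positive and 5 negative, and the median was 0.01. PPARGC1A, a coactivator of PPAR receptors, had 0.67 ± 0.21 (SE, unadjusted p = 0.00759, adjusted p = 0.650, edgeR). HIF1A, the hypoxia-inducible factor, had 0.27 ± 0.17, FOXO1 0.41 ± 0.28 and FOXO3, the other FoxO factor named here, -0.41 ± 0.29 (SE). Of the other angiopoietin-like genes, 3 of 5 were tested: ANGPTL6 had 0.42 ± 0.26, ANGPTL1 -0.48 ± 0.53 and ANGPTL2 0.02 ± 0.42 (SE).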

How the data were processed

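The authors deposited raw read counts per gene and library, and a normalized signal equal to each count divided by 1 size factor per library. Only the counts were tested; the deposited signal served as a check of the columns. The submitters' processing notes name Bowtie 0.12.2 and CanFam3.1 without a role; how reads were counted, with which annotation and strand setting, is not given in the sources used here. Strand is not marked by this kit, so reads of overlapping genes on the other strand may be included. No genome of the build was used, and positions and sequences are not given here.

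The tests ran in edgeR 4.0.16 under R 4.3.3 (filterByExpr by sample number, TMM, robust quasi-likelihood fits) on 14629 genes; dog was a block beside stimulation, or beside sample number. Dog 1 adds only to the estimate of spread in insulin against basal. Adjusted p-values follow Benjamini and Hochberg across every gene tested, threshold 0.05, and the procedure was tested on simulated data. Those data had no dog effect and independent libraries, so they cannot check how repeat libraries of 1 dog are treated. The dog numbers come from the titles; deviations from the group means had a median r of 0.171 between libraries of the same dog (15 pairs) and -0.0658 between dogs (47 pairs). Any 2 libraries differed by more than counting error. DESeq2 1.42.0 was an alternative. Correlations used log2 CPM with a prior count of 2 and, for likeness to ANGPTL4, genes with a symbol and a mean of at least 1. All members are named, and of each list the 4 of lowest p in insulin against basal. The values of some genes that this rule took are not reported here. Members, lists and tests were chosen with earlier results of these data known; the test of dog by stimulation was added after seeing the data.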

Additional observations from a re-analysis of the deposited data

Results flagged for a closer look

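ANGPTL4 in dog 1 sample 2 stood apart from the other insulin libraries. It had 11.95 CPM, and the nearest of the other 9 insulin libraries had 5.22 CPM, and on the log2 CPM scale, on which the values were examined, that gap was 0.483 of the whole range of the 10 libraries, which is above the 95% critical value of Dixon's test. Of 30 groups of values examined in this way for the 10 genes, this was the only one, and chance flags about 1 in 20 groups. That rate is for independent values, whereas the 10 insulin libraries come from 4 dogs. The groups of sample 1 and sample 2 are also parts of the group of all insulin libraries. Dog 1 sample 2 had the highest share of ACTA1 counts as well, 18.4%, and the lowest LPL level, 73.7 CPM. Without it the log2 fold change of ANGPTL4, insulin over basal, was -2.74 with an adjusted p of 0.00632 (edgeR).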

How the results depend on the processing

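Counts of genes past the threshold moved with the settings. With RLE size factors sample 1 against sample 0 gave 4. Without the filter on low counts there were 140 genes in insulin against basal, 16 in sample 1 against sample 0, 28 in sample 2 against sample 0 and 328 for dog by stimulation. DESeq2 gave 104, 40, 73 and 89 in the same order. Fits on only the 2 sample numbers compared gave 6 for sample 1 against sample 0 and 3 for sample 2 against sample 0. With the insulin libraries summed per dog 1 gene passed, and ANGPTL4 stood at -2.65. Leaving out a library or a dog, the counts ran from 4 to 28 in insulin against basal, 0 to 8 in sample 1 against sample 0, 0 to 13 in sample 2 against sample 0 and 0 to 10 for dog by stimulation. In that last test ANGPTL4 and FABP4 passed without the filter (adjusted p = 0.00982 and 0.00266, edgeR). For ANGPTL4 in insulin against basal the adjusted p was 5.21e-27 without the filter (edgeR) and 9.46e-09 in DESeq2. The unfiltered fits gave 0.918 and 0.810 for samples 1 and 2 against sample 0 (edgeR). The p-values of the unfiltered setting thus differed widely between comparisons that share libraries, and little weight can be put on them.

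Without the dog as a replicate block 6 genes passed in insulin against basal and 0 in sample 2 against sample 0, and ANGPTL4 kept its call in insulin against basal (-2.84, adjusted p = 0.0340, edgeR). Signs that turned without the block were those of LPL (-0.39), VLDLR (-0.11), CD36 (-0.20), FABP3 (-0.16), ACSL1 (-0.29) and SLC27A1 (-0.10) in insulin against basal. They were LPL (-0.14), CD36 (-0.18) and ACSL1 (-0.045) in sample 1 against sample 0, VLDLR (-0.0090) and CD36 (-0.21) in sample 2 against sample 0, and CD36 (-0.026) and FABP3 (-0.017) in sample 2 against sample 1. With only the 2 sample numbers compared, FABP3 turned to 0.0034 in sample 1 against sample 0, and CD36 to -0.15 in sample 2 against sample 0 and -0.026 in sample 2 against sample 1.

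Leaving out a library or a dog, log2 fold changes ran as follows, and apart from ANGPTL4 none of these genes passed in any such fit. In insulin against basal they were -3.37 to -2.22 for ANGPTL4, -0.10 to 0.27 for LPL, -0.12 to 0.54 for GPIHBP1, -0.13 to 0.30 for VLDLR, -0.052 to 0.34 for CD36, -0.20 to 0.48 for FABP3, -0.96 to 0.18 for FABP4, -0.096 to 0.18 for ACSL1, -0.12 to 0.090 for SLC27A1, -0.81 to 0.54 for LRP1, -0.26 to 0.12 for SCARB1, -0.12 to 0.48 for CAV1, -0.94 to 0.38 for ANGPTL1 and -0.42 to 0.80 for ANGPTL2. In sample 1 against sample 0 they were -0.13 to 0.40 for LPL, -0.20 to 0.54 for GPIHBP1, -0.25 to 0.19 for VLDLR, -0.15 to 0.23 for CD36, -0.32 to 0.29 for FABP3, -1.01 to 0.14 for FABP4 and -0.093 to 0.26 for SLC27A1. In sample 2 against sample 0 they were -0.073 to 0.47 for VLDLR, -0.12 to 0.29 for CD36, -0.32 to 0.41 for FABP3 and -0.27 to 0.039 for SLC27A1. In sample 2 against sample 1 they were -0.32 to 0.56 for ANGPTL4, -0.10 to 0.61 for GPIHBP1, -0.19 to 0.069 for LMF1, -0.25 to 0.21 for CD36, -0.11 to 0.27 for FABP3, -0.37 to 0.17 for FABP4 and -0.38 to 0.015 for SLC27A1. ANGPTL4 was negative against the basal libraries in every fit run. Its basal library lay above all insulin libraries in each dog that has one, so leaving out libraries could not turn that sign within a dog. The cause of these changes was not tested. How far depth and the number of dogs set the intervals was not tested.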
